A study of Homo sapiens with 15 samples.

Results

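The 6 genes described here are the receptor-activated SMADs SMAD1, SMAD2, SMAD3, SMAD5 and SMAD9 and the common partner SMAD4, taken by symbol from a gene-level expression table of the human cell line HK-2, which was immortalised from renal proximal tubule. They are 6 of the 24880 loci in the table, and each has 1 row. Polyadenylated RNA was sequenced in 15 libraries, 3 in each of 5 groups. A pair of groups received TGFb at 2 ug/ml together with FT895, a selective inhibitor of the histone deacetylase HDAC11, for 1 h or 12 h, and a further pair received the same TGFb, for the same times, with DMSO as the vehicle. Mock cells were given PBS and carry the label 0 h. All cells are labelled wild type and epithelial and were grown in DMEM/F12 with serum. Time in culture and the vehicle cannot be told apart from TGFb in a comparison with mock, and there was no group with FT895 and no TGFb. The sources used here do not state how much FT895 was given. The labels do not say whether a group's 3 libraries are from separate cultures, and p-values therefore cover only how far these libraries spread, which may be technical.

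SMAD proteins carry the TGFb superfamily signal from the membrane to the nucleus. SMAD2 and SMAD3 are phosphorylated by the type I receptors for TGFb and activin, SMAD1, SMAD5 and SMAD9 mainly by those for bone morphogenetic proteins (BMPs), and phosphorylated receptor SMADs pair with SMAD4 and bind DNA. In renal tubule cells the SMAD3 branch is known for driving matrix genes, while SMAD6 and SMAD7 are inhibitory SMADs that the pathway itself induces. The values below are transcript levels and carry no information on phosphorylation or on where the proteins are in the cell.

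In HK-2 cells SMAD3 was the most abundant of the 6 transcripts, and it was the member with the greatest change: after 12 h with TGFb it fell to 18.3 ± 1.04 FPKM (fragments per kilobase of transcript, scaled to the fragments mapped in a library), against 38.4 ± 1.43 FPKM in mock (SD, n = 3 each). SMAD5 rose and SMAD1 fell, both by far less, and SMAD2 and SMAD4 did not pass the test in that comparison. The SMAD5 call held in 23 of 25 settings and the SMAD1 call in 18 of 25. Of all tested genes 14.2% were called higher there and 24.5% lower. The low-expressed SMAD9 had higher values at 12 h, a description only, since it was tested only through the 12 h groups. No member passed the test after 1 h, where 8.98% of tested genes were called for TGFb and 3.82% for TGFb + FT895 against mock. None passed it for FT895 against vehicle at either time, where 0.0722% of tested genes were called at 1 h and 0.016% at 12 h. Fewer cells expressing a gene and less RNA per cell cannot be told apart in these bulk samples.

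SMAD3 lies on chromosome 15 and SMAD5 on chromosome 5, both on the plus strand, at chr15:67063763-67195195 and chr5:136132845-136188747 (GENCODE v29 on GRCh38). SMAD3 is the member of the TGFb branch with the largest 12 h change, SMAD5 is a member of the BMP branch that rose at 12 h and reached 1 FPKM in every library, and for that reason the 250 bases upstream of their first listed transcription start are shown. The sequences are RefSeq's for GRCh38.p14, plus strand, from chr15:67065352-67065601 and chr5:136132595-136132844. Capitals mark GGCGCC, a palindromic GC-rich SMAD-binding motif, in SMAD3, and AGAC, a copy of the short SMAD-binding element on the opposite strand, in SMAD5.
SMAD3 promoter: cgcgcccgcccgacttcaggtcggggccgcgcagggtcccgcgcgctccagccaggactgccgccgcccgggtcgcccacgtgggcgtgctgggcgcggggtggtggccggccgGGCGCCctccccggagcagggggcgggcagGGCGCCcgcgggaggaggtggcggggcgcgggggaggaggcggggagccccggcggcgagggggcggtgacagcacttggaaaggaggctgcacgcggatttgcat
SMAD5 promoter: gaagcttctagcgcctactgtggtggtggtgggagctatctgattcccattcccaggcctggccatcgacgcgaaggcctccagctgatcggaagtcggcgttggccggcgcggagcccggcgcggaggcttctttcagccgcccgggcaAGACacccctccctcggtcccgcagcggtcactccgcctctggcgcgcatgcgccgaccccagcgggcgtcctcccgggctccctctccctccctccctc
The SMAD3 window was 80.8% G and C and held 2 copies of GGCGCC and no GTCT or AGAC. The SMAD5 window was 70.4% G and C and held 1 AGAC and no GGCGCC. In the same windows of other members, SMAD2 and SMAD4 each held 1 GGCGCC, and SMAD1 and SMAD9 held none. GTCT or AGAC matched 2 times in SMAD1, 1 time each in SMAD2 and SMAD9, and not in SMAD4. The motifs therefore do not follow the direction of change among the members. The shares that follow are over all promoters and are not matched for G and C content. Over 27305 RefSeq promoters of the same length, searched on both strands, 77.6% held GTCT or AGAC, 16.1% held GGCGCC and 0.176% held the joined palindrome GTCTAGAC, which contains both short forms and was in the windows of none of the 6 members. A match is a description of these letters and not a site. SMAD3 has 5 starts in the RefSeq table, and a longer transcript in GENCODE v29 begins upstream of the window shown, which lies in an intron of that transcript, and gene-level FPKM does not separate starts.

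The other members are SMAD2 (chr18:47808957-47931146, minus strand), SMAD4 (chr18:51028394-51085045, plus strand), SMAD1 (chr4:145481194-145558079, plus strand) and SMAD9 (chr13:36844831-36920765, minus strand). All 6 are annotated as protein coding, with 4 transcripts for SMAD9 and 12 to 17 for the others, and the values cover whole genes. Antisense genes overlap SMAD1, SMAD2, SMAD3 and SMAD5. The sources used here do not say whether the libraries were stranded, so antisense reads cannot be told apart from those of the gene. SMAD4 shares part of its strand with the coding gene AC091551.1, which stood at 0.0601 to 0.31 FPKM.

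By mean FPKM over the 15 libraries SMAD3 ranked 2307 of 19974 annotated loci, SMAD5 ranked 5861, SMAD4 6040, SMAD1 7315, SMAD2 9161 and SMAD9 11337. SMAD3 was the highest of the 6 in 15 of 15 libraries, and SMAD1 was above SMAD2, and SMAD2 above SMAD9, in each of them. SMAD4 was above SMAD5 in the 3 mock libraries, and SMAD5 was above SMAD4 in the 6 libraries of 12 h. Expression of 5 members reached 1 FPKM, the minimum set for testing, in all 15 libraries. SMAD9 reached it in 5 libraries, all of them at 12 h, so it was tested only through the groups where it was high, and its calls are described apart and support nothing.

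FPKM gives no read depth, which is unknown here, and the summed FPKM was 386532 to 406560 in 14 libraries and 434520 in TGFb 1 h replicate 1. That library also deviated most from its group mean, with a residual SD of 0.211 over all tested genes (log2 scale) against 0.107 to 0.156 in the others, and without it no member gained or lost a call in any of the 9 comparisons. Member changes described below that it moved by over 1.5 times are given without it. So are calls of other named genes for TGFb against mock that it turned. Among 11 markers of renal epithelium 7 had a mean of at least 1 FPKM in every group, KRT8 (276 to 459 FPKM), PAX8 (23.9 to 55.8) and GGT1 (58.1 to 83.4) among them, while the brush-border genes LRP2, CUBN, ANPEP and SLC34A1 were listed at 0 or at most at 0.0432 FPKM. None of 5 endothelial and none of 7 distal nephron and podocyte markers reached that level, 1 of 6 leukocyte markers did (CD68, 33.0 to 46.5 FPKM, with PTPRC at 0.0141 FPKM or less), and 2 of 7 fibroblast and pericyte markers did (LUM and RGS5, with PDGFRA listed at 0 and COL1A2 at 0.0445 FPKM or less). At 12 h, where SMAD3 was low, the summed markers of fibroblasts and pericytes were 12.9 to 15.3 FPKM with TGFb + FT895 and 13.1 to 20.0 FPKM with TGFb, against 20.3 to 21.0 FPKM in mock. The leukocyte markers summed to 33.9 to 37.8 and 33.2 to 38.1 FPKM in the same order, against 41.2 to 44.2 FPKM in mock, and the epithelial markers to 855 to 897 and 852 to 935 FPKM, against 740 to 770 FPKM in mock. The epithelial sum hides opposite changes. Of the 7 epithelial markers tested, 3 were called higher and 3 lower for TGFb 12 h against mock. Among all tested genes 14.2% were called higher and 24.5% lower. The part of these shifts in the results was not tested.

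**Figure D1:**
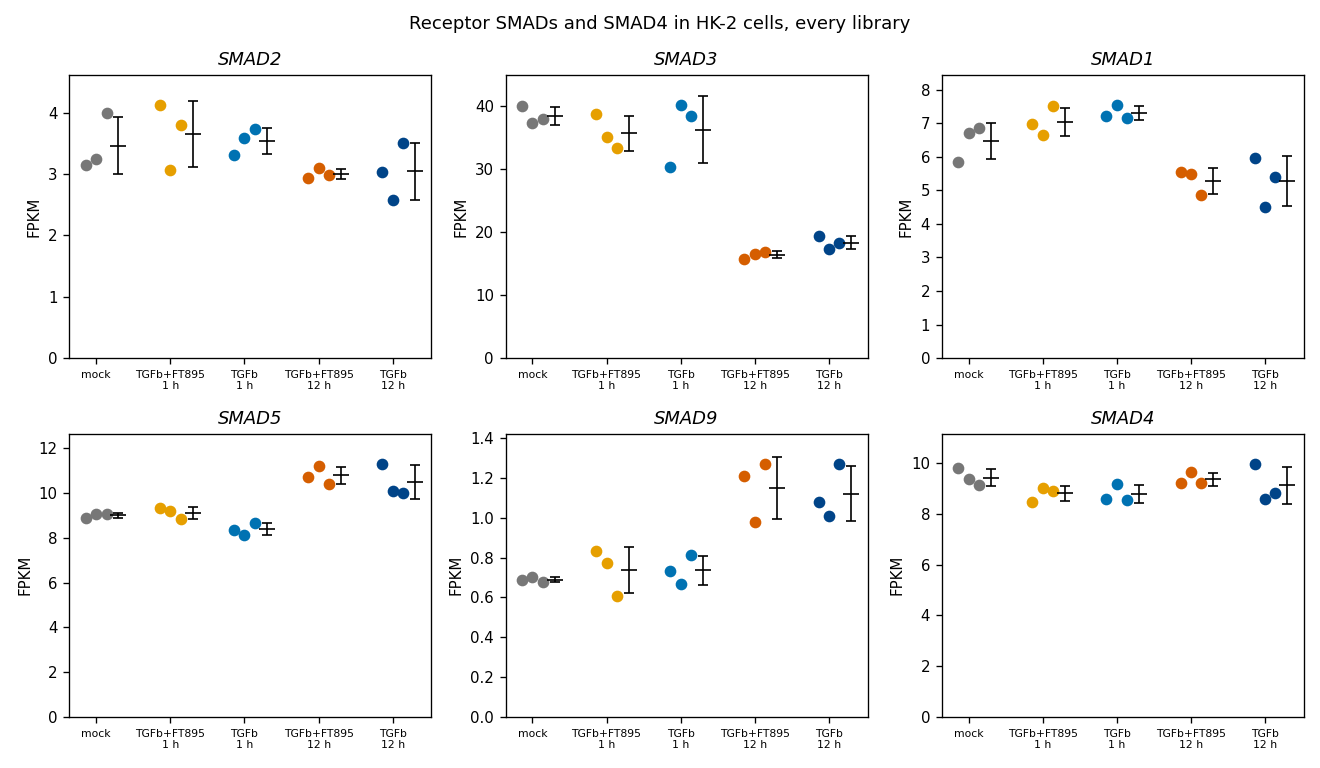
FPKM of each member (vertical axis, from 0, a different scale in each panel) in mock, TGFb + FT895 1 h, TGFb 1 h, TGFb + FT895 12 h and TGFb 12 h (horizontal axis). Each point is 1 library, and the bar beside it is the mean with its SD (n = 3). SMAD3 sits between 15.8 and 19.4 FPKM in the 6 libraries of 12 h and between 30.3 and 40.2 FPKM in the 9 others.

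SMAD3, the receptor SMAD through which TGFb reaches most of its fibrotic target genes, held its level at 1 h within the spread of the libraries. At 1 h it stood at 38.8, 35.1 and 33.4 FPKM with TGFb + FT895 and at 30.3, 40.2 and 38.5 FPKM with TGFb alone, against 40.0, 37.3 and 38.0 FPKM in mock. The lowest of these 9 values was TGFb 1 h replicate 1, and the ranges overlap. The change at 1 h was -0.09 ± 0.089 for TGFb against mock (SE, on the log2(FPKM + 1) scale used for every change here, limma, adjusted p = 0.539), and 0.033 without that library.

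At 12 h SMAD3 stood at 15.8, 16.5 and 16.9 FPKM with TGFb + FT895 and at 19.4, 17.3 and 18.3 FPKM with TGFb alone. Each of these 6 values was below each of the 9 mock and 1 h values. Without overlap in the same direction lay 35.1% of tested genes for TGFb 12 h against mock and 35.2% for TGFb + FT895 12 h against mock, and 26.5% and 36.6% for each 12 h group against its 1 h group with TGFb and with TGFb + FT895. For TGFb 12 h against mock the change was -1.03 ± 0.089 (95% interval -1.22 to -0.84, limma, adjusted p = 4.05e-07), a ratio of mean FPKM of 0.477. Of the 12467 genes tested in that comparison 38.6% were called at adjusted p under 0.05, 24.5% lower and 14.2% higher, so a call alone says little here. The size was less common on the log2(FPKM + 1) scale, where 147 genes, or 1.18% of those tested, were called lower by at least as much as SMAD3. That scale understates fold changes of genes near 1 FPKM, so this share is not one of fold changes. Against TGFb 1 h the change at 12 h was -0.94 ± 0.089 (limma, adjusted p = 1.29e-06), and -1.06 without TGFb 1 h replicate 1. With FT895 present SMAD3 also fell, by 1.18 on the log2 scale against mock and by 1.08 against TGFb + FT895 1 h (limma, adjusted p = 9.42e-08 and 3.27e-07), and the comparisons with mock share the 3 mock libraries. In each of these 4 comparisons SMAD3 was called under all 25 settings tried.

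SMAD2, the other receptor SMAD of the TGFb and activin branch, was far less abundant than SMAD3. At 1 h it stood at 4.12, 3.06 and 3.79 FPKM with TGFb + FT895 and at 3.31, 3.59 and 3.73 FPKM with TGFb, against 3.15, 3.25 and 4.0 FPKM in mock. At 12 h the values were 2.94, 3.09 and 2.98 FPKM with TGFb + FT895 and 3.03, 2.58 and 3.51 FPKM with TGFb. The 3 values with FT895 at 12 h lay below the 3 mock values, as was so for 35.2% of tested genes, and the TGFb 12 h values overlapped them. The change was -0.15 ± 0.10 for TGFb 12 h against mock (95% interval -0.37 to 0.078, limma, adjusted p = 0.294) and -0.15 for TGFb + FT895 12 h against mock (limma, adjusted p = 0.281). SMAD2 passed in 1 comparison under 1 setting, TGFb + FT895 12 h against 1 h without TGFb + FT895 1 h replicate 2 (-0.31, limma, adjusted p = 0.0423, against -0.21 and 0.127 with it).

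The balance within the TGFb and activin branch differed accordingly. SMAD2 over SMAD3, a ratio of FPKM within a library that does not depend on how libraries are scaled, was 0.183 ± 0.00587 with TGFb + FT895 12 h and 0.166 ± 0.0225 with TGFb 12 h, against 0.0903 ± 0.0135 in mock (SD, n = 3 each). The lowest 12 h ratio was 0.149 and the highest mock ratio 0.105, so the ranges do not overlap. At 1 h the ratio was 0.102 ± 0.0136 with TGFb + FT895 and 0.0985 ± 0.0101 with TGFb, both overlapping mock.

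SMAD1 and SMAD5 are receptor SMADs of the BMP branch with closely similar proteins, and at 12 h their changes had opposite signs. At 1 h SMAD5 stood at 9.35, 9.22 and 8.83 FPKM with TGFb + FT895 and at 8.37, 8.14 and 8.66 FPKM with TGFb, against 8.88, 9.08 and 9.07 FPKM in mock. At 12 h it stood at 10.7, 11.2 and 10.4 FPKM with TGFb + FT895 and at 11.3, 10.1 and 10.0 FPKM with TGFb. Every 12 h value was above every other value of SMAD5, and the TGFb 1 h values lay just below mock. SMAD5 rose by 0.19 ± 0.058 for TGFb 12 h against mock (limma, adjusted p = 0.0161, ratio of means 1.16), by 0.29 for TGFb 12 h against 1 h (adjusted p = 0.00127, where 41.0% of genes were called), and by 0.23 for TGFb + FT895 12 h against mock (adjusted p = 0.00576, where 37.5% were called). The first of these calls was lost without mock replicate 1 (0.19, adjusted p = 0.0545) and without TGFb 12 h replicate 1 (0.14, adjusted p = 0.0685), and the other 2 held in 25 of 25 settings. Upward calls made up 14.2% of tested genes for TGFb 12 h against mock, 16.8% for TGFb 12 h against 1 h, 14.7% for TGFb + FT895 12 h against mock and 13.5% for TGFb + FT895 12 h against 1 h, where SMAD5 rose by 0.22 (limma, adjusted p = 0.00909). Higher without overlap, as SMAD5 was, were 19.8%, 19.7%, 21.1% and 19.2% of tested genes in those comparisons.

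For SMAD1 the 1 h values were 6.98, 6.64 and 7.5 FPKM with TGFb + FT895 and 7.23, 7.54 and 7.17 FPKM with TGFb, against 5.85, 6.71 and 6.86 FPKM in mock. At 12 h they were 5.54, 5.49 and 4.85 FPKM with TGFb + FT895 and 5.95, 4.50 and 5.39 FPKM with TGFb. All 6 values of 12 h lay below all 6 of 1 h, and the values with FT895 at 12 h lay below mock, while the TGFb 12 h and mock ranges overlap through mock replicate 1. SMAD1 fell by 0.41 ± 0.088 for TGFb 12 h against 1 h (limma, adjusted p = 0.00182) and by 0.35 for TGFb + FT895 12 h against 1 h (adjusted p = 0.00536, where 38.2% of genes were called), and both calls held in 25 of 25 settings. Downward calls made up 24.2% and 24.8% of tested genes in these comparisons, and 22.7% for TGFb + FT895 12 h against mock. Lower without overlap, as SMAD1 was, were 26.5%, 36.6% and 35.2% of tested genes in the same 3 comparisons.

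Against mock the SMAD1 change was smaller and less certain. It was -0.26 ± 0.088 for TGFb 12 h (limma, adjusted p = 0.0319) and -0.25 for TGFb + FT895 12 h (adjusted p = 0.0381). The first call held in 18 of 25 settings and was lost without mock replicate 2 (adjusted p = 0.0976), mock replicate 3 (0.114), TGFb 12 h replicate 2 (0.164) or TGFb 12 h replicate 3 (0.0564), and with median-of-ratios scaling (-0.18, adjusted p = 0.112). The second held in 16 of 25 and was lost without mock replicate 2 (adjusted p = 0.112), mock replicate 3 (0.131), or any 1 of the 3 TGFb + FT895 12 h libraries (0.0524, 0.0569 and 0.148). SMAD1 over SMAD5 in FPKM was 0.491 ± 0.027 with TGFb + FT895 12 h and 0.503 ± 0.0499 with TGFb 12 h, against 0.718 ± 0.052 in mock (SD, n = 3 each), and the 12 h and mock ranges do not overlap. At 1 h that ratio was 0.772 ± 0.0675 with TGFb + FT895 and 0.872 ± 0.0495 with TGFb.

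SMAD9, the third BMP-branch receptor SMAD and itself a known transcriptional target of BMP signals, was near 1 FPKM, where the log2(FPKM + 1) scale understates fold changes. Its 1 h values were 0.833, 0.773 and 0.608 FPKM with TGFb + FT895 and 0.733, 0.666 and 0.811 FPKM with TGFb, against 0.686, 0.702 and 0.679 FPKM in mock. At 12 h it stood at 1.21, 0.976 and 1.27 FPKM with TGFb + FT895 and at 1.08, 1.01 and 1.27 FPKM with TGFb, all above the 9 other values. In the 4 comparisons of a 12 h group with mock or with its 1 h group, 19.2% to 21.1% of tested genes were higher without overlap and 13.5% to 16.8% were called higher. The change for TGFb 12 h against mock was 0.33 ± 0.089 (limma, adjusted p = 0.00968). With no filter on low values, over 16480 loci with an Ensembl identifier, the change was 0.33 with an adjusted p of 0.00244 in limma. The SMAD9 calls are given as a description and support nothing. For TGFb 12 h against 1 h the change of 0.29 (adjusted p = 0.019) lost its call without TGFb 1 h replicate 2 (adjusted p = 0.0581) or TGFb 12 h replicate 3 (0.0821). For TGFb + FT895 12 h against 1 h the change of 0.31 (adjusted p = 0.0136) lost its call without TGFb + FT895 1 h replicate 3 (0.0597) or TGFb + FT895 12 h replicate 3 (0.0546).

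SMAD4, the partner shared by both branches, varied least in proportion to its level, between 8.49 and 9.98 FPKM over the 15 libraries. At 1 h it stood at 8.49, 9.05 and 8.93 FPKM with TGFb + FT895 and at 8.61, 9.18 and 8.54 FPKM with TGFb, against 9.82, 9.38 and 9.14 FPKM in mock. At 12 h it stood at 9.23, 9.66 and 9.22 FPKM with TGFb + FT895 and at 9.98, 8.61 and 8.82 FPKM with TGFb. The 12 h ranges overlap mock in both groups, and the 3 values of TGFb + FT895 1 h lay below mock, as was so for 10.9% of tested genes. For TGFb 12 h against mock the change was -0.045 ± 0.062 with a 95% interval of -0.18 to 0.088 (limma, adjusted p = 0.603), and its sign turned with median-of-ratios scaling (0.032). SMAD4 passed for TGFb 1 h against mock only when libraries were weighted (-0.12, adjusted p = 0.0466). For TGFb + FT895 12 h against 1 h it passed with median-of-ratios scaling (0.16, adjusted p = 0.0397) and with quantile normalization (0.17, adjusted p = 0.0284), against 0.078 and 0.34 on the values as deposited.

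**Figure D2:**
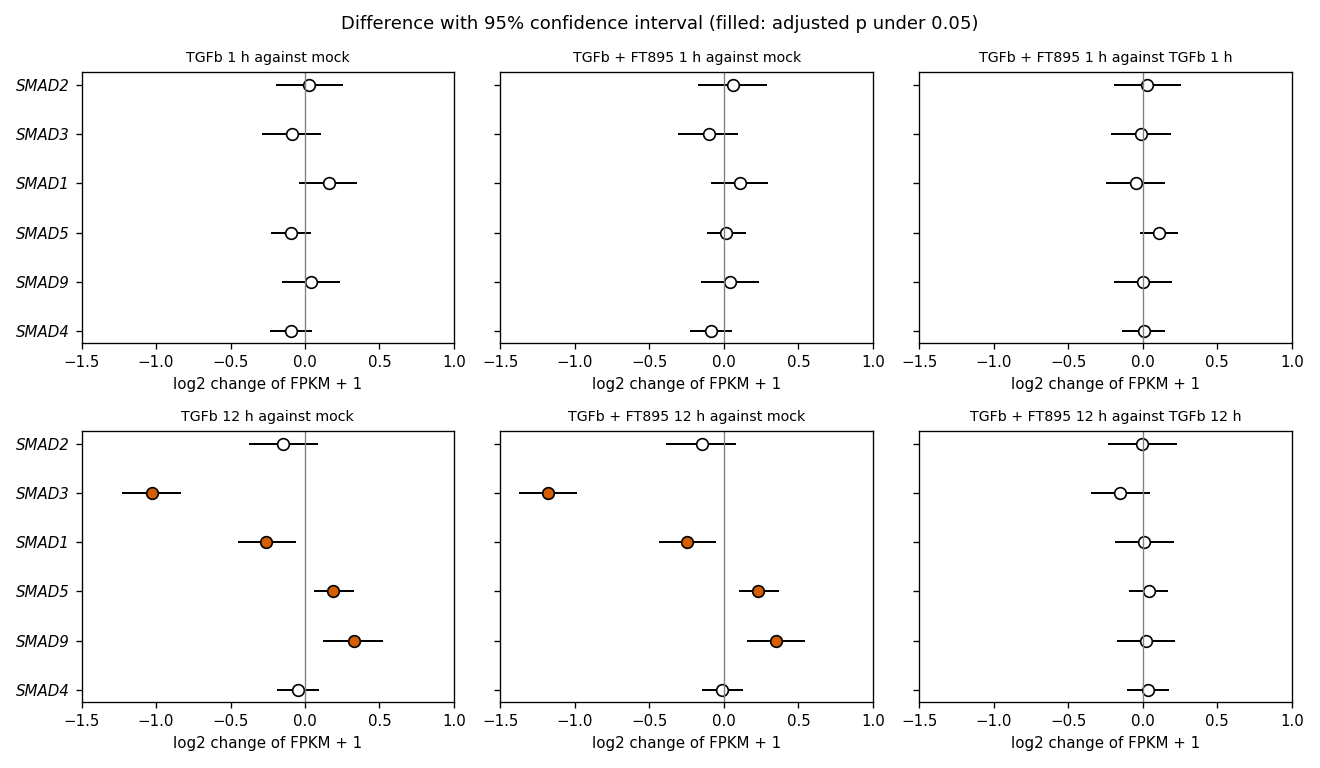
Difference of each member on the log2(FPKM + 1) scale (horizontal axis) with its 95% confidence interval, in 6 comparisons, with 1 h in the upper row and 12 h in the lower row. Filled points passed an adjusted p of 0.05 in limma. SMAD3 at -1.03 and -1.18 lies far from the other members at 12 h, and in the right column every interval for FT895 against vehicle spans 0.

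Set together, the 5 receptor SMADs summed to 36.6 ± 0.535 FPKM with TGFb + FT895 12 h and 38.2 ± 2.68 FPKM with TGFb 12 h, against 58.1 ± 0.922 FPKM in mock (SD, n = 3 each). At 1 h the sum was 56.3 ± 3.25 FPKM with TGFb + FT895 and 56.3 ± 5.58 FPKM with TGFb. The highest 12 h sum was 40.8 FPKM and the lowest mock sum 57.0 FPKM. SMAD3 held 44.8% ± 1.42 of that sum with TGFb + FT895 12 h and 48.0% ± 0.7 with TGFb 12 h, against 66.2% ± 1.87 in mock, while SMAD5 held 29.4% ± 0.717 and 27.4% ± 1.27, against 15.5% ± 0.388 in mock. SMAD2 plus SMAD3 over SMAD1 plus SMAD5 plus SMAD9 was 1.13 ± 0.0654 with TGFb + FT895 12 h and 1.27 ± 0.0457 with TGFb 12 h, against 2.60 ± 0.182 in mock. SMAD4 over the 5 receptor SMADs was 0.256 ± 0.00331 and 0.239 ± 0.00877 at 12 h in the same order, against 0.163 ± 0.00603 in mock. SMAD3 enters each of these sums and ratios, which are descriptions without a test and compare transcripts per length, not proteins.

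**Figure D3:**
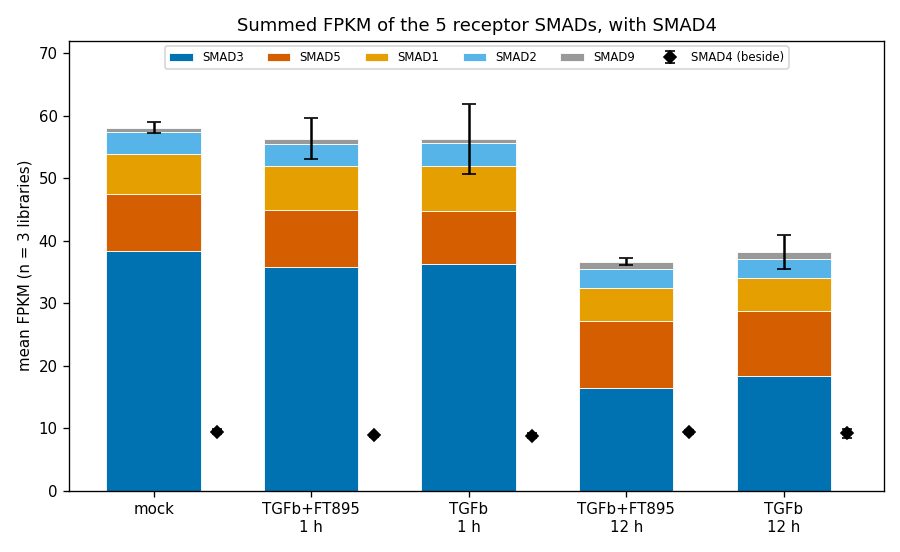
Mean FPKM (vertical axis, from 0) of the 5 receptor SMADs stacked, with the SD of their sum over 3 libraries, and SMAD4 as a diamond with its SD beside each bar. The sum is 36.6 and 38.2 FPKM in TGFb + FT895 12 h and TGFb 12 h, against 58.1 FPKM in mock. The SMAD3 segment is 16.4 and 18.3 FPKM in the same order, against 38.4 FPKM in mock.

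At 1 h no member passed the test for TGFb against mock in limma, where 8.98% of the genes tested were called, and none of the 6 had an unadjusted p under 0.05. SMAD1 was nearest, at 0.16 ± 0.088 (95% interval -0.032 to 0.34, adjusted p = 0.271), with its 3 TGFb values above its 3 mock values. SMAD5 was -0.093 ± 0.058 (95% interval -0.22 to 0.032, adjusted p = 0.325), with its 3 TGFb values below mock. Ranges that do not overlap in this way were found for 11.5% of tested genes upward and for 18.4% downward. For TGFb + FT895 1 h against mock, again no member was called and none had an unadjusted p under 0.05, against 3.82% of genes called.

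The design text of the series asks how FT895 alters expression under TGFb, and none of the 6 members was called for FT895 against vehicle. At 1 h limma called 0.0722% of all genes tested and at 12 h 0.016%, so few genes of any kind passed, and no member had an unadjusted p under 0.05 at either time. The member nearest to a difference at 12 h was SMAD3, with a change of -0.15 ± 0.089 (95% interval -0.34 to 0.04, adjusted p = 0.898). Its 3 FT895 values, at most 16.9 FPKM, lay below its 3 vehicle values, at least 17.3 FPKM, and 6.08% of tested genes were lower with FT895 without overlap. At 1 h SMAD3 differed by -0.015 (95% interval -0.21 to 0.18), and by -0.14 without TGFb 1 h replicate 1 (adjusted p = 0.325).

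SMAD5 was the member nearest to a difference at 1 h, at 0.11 ± 0.058 (95% interval -0.015 to 0.23, adjusted p = 0.41). Its 3 FT895 values were above its 3 vehicle values, as was so for 12.8% of tested genes, and at 12 h it differed by 0.039 (95% interval -0.086 to 0.16). For SMAD1, SMAD2, SMAD4 and SMAD9 the FT895 and vehicle ranges overlap at both times. The 12 h intervals were -0.18 to 0.20 for SMAD1, -0.23 to 0.22 for SMAD2, -0.10 to 0.17 for SMAD4 and -0.17 to 0.21 for SMAD9. These widths show which differences the 3 libraries could not exclude and do not show that FT895 leaves the members alike. The difference between the FT895 effects at 12 h and 1 h was called for no member and none had an unadjusted p under 0.05, against 0.168% of genes called, and for SMAD3 it was -0.14 (95% interval -0.41 to 0.13) and -0.014 without TGFb 1 h replicate 1.

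The wider pathway was read from 10 lists with 100 genes, of which 88 were tested. Several genes sit in more than 1 list. Each count reads against all tested genes, of which 8.98% were called for TGFb 1 h against mock, and 14.2% were called higher and 24.5% lower for TGFb 12 h against mock. The inhibitory SMADs moved early: SMAD7, which blocks receptor SMADs at the receptor, stood at 35.6 ± 0.784 FPKM with TGFb 1 h, against 7.22 ± 0.194 FPKM in mock (SD, n = 3 each, change 2.15, limma, adjusted p = 1.18e-12), and at 20.8 ± 0.959 FPKM with TGFb 12 h (change 1.41, adjusted p = 4.73e-11). The 3 SMAD7 values of each TGFb group lay above the highest mock value of 7.44 FPKM. SMAD6, which acts mainly on the BMP branch, stood at 2.34 ± 0.299 FPKM with TGFb 1 h, against 1.43 ± 0.157 FPKM in mock (change 0.45, adjusted p = 0.0121), a call lost without mock replicate 1 (adjusted p = 0.0554), and it did not pass at 12 h (0.064, adjusted p = 0.641).

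Among type I and type II receptors and co-receptors, 10 of 14 were tested, and 1 rose and 1 fell with TGFb 1 h against mock, while 5 rose and 3 fell with TGFb 12 h, against 8.98% and 38.6% of all tested genes called. TGFBR1, the type I receptor that phosphorylates SMAD2 and SMAD3, stood at 12.8 ± 1.04 FPKM with TGFb 12 h, against 6.78 ± 0.222 FPKM in mock (change 0.83, limma, adjusted p = 2.49e-07). TGFBR2, the type II receptor that binds TGFb, stood at 13.0 ± 0.121 FPKM, against 20.5 ± 0.281 FPKM in mock (change -0.61, adjusted p = 1.13e-06). BMPR2, the type II receptor for BMPs, stood at 18.9 ± 0.567 FPKM, against 9.48 ± 0.0417 FPKM in mock (change 0.92), and the co-receptor ENG rose by 0.80. The 12 h and mock values of TGFBR1, TGFBR2 and BMPR2 do not overlap, as was so for 19.8% of tested genes upward and 35.1% downward, and the median change of the 10 was 0.30, against -0.08 over all genes tested. At 1 h the TGFBR2 change of -0.24 (adjusted p = 0.0228) lost its call without any 1 mock library (adjusted p = 0.0837, 0.0545 and 0.0787).

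Most of the listed SMAD2/3 targets rose. Of 18 such targets, all tested, 13 rose and none fell with TGFb 1 h against mock, and 17 rose and none fell with TGFb 12 h, at medians of 0.95 and 1.54 against -0.028 and -0.08 over all genes. Called higher were 461 of all 12467 tested genes at 1 h and 14.2% at 12 h. The list was chosen with earlier results of these data known, so these counts describe the listed genes and are no independent readout. COL1A1, a chain of type I collagen, stood at 45.4 ± 0.452 FPKM with TGFb 12 h, against 2.44 ± 0.229 FPKM in mock (SD, n = 3 each, change 3.75, limma, adjusted p = 3.91e-13), and changed by 0.19 at 1 h (adjusted p = 0.194). Without TGFb 1 h replicate 1 the 1 h change of COL1A1 was 0.29 and passed (adjusted p = 0.0209), as it did with library weights (0.31) and with quantile normalization (0.27). SNAI1, a repressor of epithelial genes, changed by 2.79 at 1 h and 2.25 at 12 h. In the same TGFb 12 h libraries SMAD3 lay below mock.

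Of the 15 SMAD1/5 targets 11 were tested, among them SMAD6 and the member SMAD9. SMAD9, DLX2 and HEY1 were under 1 FPKM in every mock library and were tested only through other groups, so they are left out of the counts. Of the other 8, 7 rose and none fell with TGFb 1 h against mock, and 3 rose and 1 fell with TGFb 12 h. Among all tested genes 8.98% were called at 1 h, and 14.2% were called higher and 24.5% lower at 12 h. This list too was chosen with earlier results of these data known, so its counts are a description. ID1, which blocks DNA binding by basic helix-loop-helix proteins, stood at 169 ± 25.2 FPKM with TGFb 1 h, against 31.0 ± 4.01 FPKM in mock (change 2.41, limma, adjusted p = 1.03e-09), and at 32.6 ± 1.29 FPKM with TGFb 12 h (change 0.079, adjusted p = 0.594). Its 1 h values lay between 147 and 197 FPKM and above every mock value. HES1, a transcriptional repressor, changed by 3.50 at 1 h and 1.72 at 12 h. DLX2, a homeobox gene, averaged 7.23 ± 0.851 FPKM with TGFb 1 h and 3.0 ± 0.236 FPKM with TGFb 12 h, against 0.666 ± 0.058 FPKM in mock (SD, n = 3 each), values given as a description only.

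Further lists hold regulators that act with SMAD proteins. Of 7 co-repressors tested, 3 rose and 1 fell with TGFb 1 h and 2 rose with TGFb 12 h against mock. Of all tested genes 8.98% were called at 1 h and 38.6% at 12 h. PMEPA1, which holds receptor SMADs away from the receptor, stood at 105 ± 2.73 FPKM with TGFb 12 h, against 23.9 ± 0.344 FPKM in mock (change 2.09, limma, adjusted p = 7.81e-13). SKIL, a repressor of SMAD-bound promoters, changed by 1.01 at 1 h and 1.15 at 12 h, and TGIF1 by 0.36 at 1 h, all called. Of 11 co-activators and DNA-binding partners, 1 fell at 1 h, and 3 rose and 2 fell at 12 h. These counts are near the shares of all tested genes called and are no result about the list. The 12 h count of 5 became 8 without TGFb 1 h replicate 1. The 1 h count became 3 without TGFb 1 h replicate 2 and 2 without TGFb + FT895 12 h replicate 3. CITED2, a partner of the acetyltransferases CBP and p300, stood at 27.4 ± 1.93 FPKM with TGFb 12 h, against 126 ± 3.31 FPKM in mock (change -2.17), while MED15 and RUNX1 rose by 0.44 and 0.56.

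Other lists hold genes for proteins that anchor, import, ubiquitinate or dephosphorylate SMADs. Of 11 anchors, adaptors and import factors 2 fell at 1 h and 5 fell at 12 h against mock, where 5.28% and 24.5% of all tested genes were called lower, with TGFBRAP1 at -0.66 and ERBIN at -0.53 for TGFb 12 h. The 2 calls at 1 h, ERBIN and ZFYVE16, were both lost without any 1 mock library, ERBIN was also lost without TGFb 1 h replicate 1 or replicate 3, TGFb + FT895 1 h replicate 1 or replicate 2, or TGFb + FT895 12 h replicate 1 (adjusted p = 0.0503 to 0.0625), and the 12 h count became 3 without TGFb 12 h replicate 2. ZFYVE16, at -0.22 for TGFb 12 h (limma, adjusted p = 0.0416), lost that call without any 1 of the mock or TGFb + FT895 12 h libraries and without TGFb 12 h replicate 2 or replicate 3 (adjusted p = 0.0513 to 0.175).

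In the enzyme lists the genes called lower at 12 h were 2 of 9 ligases, 2 of 7 deubiquitinases and 2 of 9 phosphatases and kinases, near the 24.5% of all tested genes, so these counts are no result about the lists. Of the 9 ubiquitin ligases tested none was called at 1 h, where 2 had an unadjusted p under 0.05. Without TGFb 1 h replicate 1, 2 were called higher at 1 h, SMURF1 by 0.25 and WWP2 by 0.37 (limma, adjusted p = 0.0159 and 0.0431). At 12 h SMURF1, a ligase for SMAD1 and SMAD5, rose by 0.42 (limma, adjusted p = 0.00486), and NEDD4L, a ligase for phosphorylated SMAD2 and SMAD3, fell by 0.75 (adjusted p = 5.84e-05). WWP2 fell by 0.31 (adjusted p = 0.0338), a call lost without any 1 mock library and without TGFb 12 h replicate 1 or replicate 3 (adjusted p = 0.0624 to 0.137). Of 7 deubiquitinases none was called at 1 h, where 1 had an unadjusted p under 0.05, and 2 fell at 12 h: UCHL5 by 0.36 and USP15 by 0.34, the USP15 call being lost when mock replicate 1 or either of replicates 2 and 3 of TGFb 12 h was left out (adjusted p = 0.0614 to 0.113). Of 9 phosphatases and linker kinases none was called at 1 h, where 2 had an unadjusted p under 0.05, and CTDSPL and CTDSP1, phosphatases that act on the SMAD linker, fell by 0.33 and 0.23 at 12 h, the CTDSP1 call being lost with median-of-ratios scaling (adjusted p = 0.053). Without TGFb 1 h replicate 2 the 1 h count became 1 in the deubiquitinases and 1 in the phosphatases and kinases, where PPM1A, which removes the activating phosphate of SMAD2 and SMAD3, passed at 0.73 (adjusted p = 9.54e-05, against 0.46 and 0.0984 with it).

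**Figure D4:**
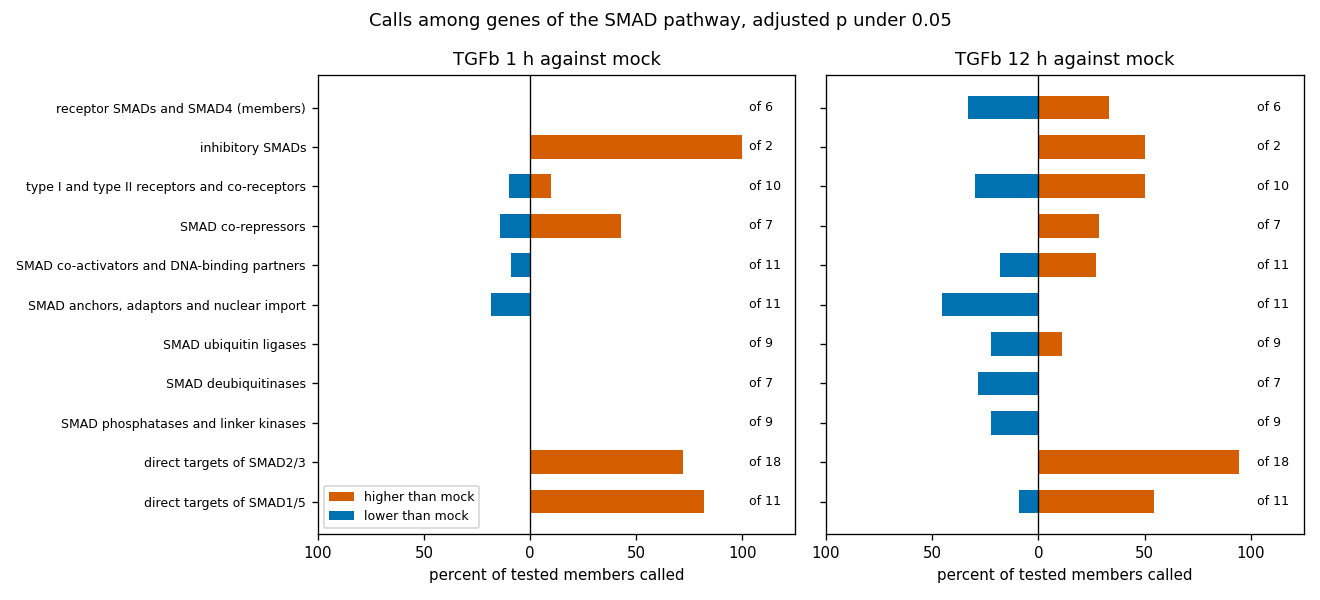
Percent of the tested genes of each list (horizontal axis) that limma called higher than mock (orange, to the right) or lower than mock (blue, to the left), for TGFb 1 h and TGFb 12 h, with the number tested at the right. The SMAD2/3 targets, with 13 and 17 of 18 called higher, have the longest bars at 12 h, while at 1 h the members, the ligases, the deubiquitinases and the phosphatases and kinases have none. The SMAD1/5 targets are drawn with SMAD9, DLX2 and HEY1 included, and the members with SMAD9 included. Without SMAD9, 1 of 5 members was called higher with TGFb 12 h.

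FT895 changed no gene of these lists at an adjusted p under 0.05 in limma, at 1 h or at 12 h. Of the 88 genes 12 had an unadjusted p under 0.05 at 1 h, 11 of them higher with FT895. The median change over all tested genes at 1 h was 0.044, also higher with FT895. That comparison includes TGFb 1 h replicate 1, the library that deviated most from its group mean. The share of all genes at an unadjusted p under 0.05 was not computed, so this count is no result about the lists. At 12 h 2 genes had an unadjusted p under 0.05. Those at 12 h were ID1, which stood at 40.7 ± 2.64 FPKM with TGFb + FT895, against 32.6 ± 1.29 FPKM with TGFb (0.31, adjusted p = 0.608), and DLX2, at 1.82 ± 0.476 FPKM with TGFb + FT895, against 3.0 ± 0.236 FPKM with TGFb (-0.52, adjusted p = 0.107). With 1 library left out, single genes passed for FT895: 1 phosphatase or kinase at 1 h and 1 in the difference between the times without TGFb 1 h replicate 2, 1 SMAD1/5 target at 12 h and 1 SMAD2/3 target in the difference without TGFb 1 h replicate 1, and 1 SMAD1/5 target in the difference without TGFb + FT895 12 h replicate 3. For ID1 and DLX2 the 3 values with FT895 and the 3 with vehicle do not overlap, as was so for 7.83% of tested genes upward and 6.08% downward. SMAD7 stood at 19.6 ± 0.718 FPKM with TGFb + FT895 12 h, against 20.8 ± 0.959 FPKM with TGFb 12 h (SD, n = 3 each).

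Genes whose profile over the 15 libraries was most like that of a member were found by Pearson's r of log2(FPKM + 1), among about 8050 genes with a mean of at least 5 FPKM. These values are a description and carry no test, since the libraries fall into the 6 of 12 h and the 9 others, and share scaling and treatment. SMAD3 was most like SHISA9 (r = 0.99), SLC6A6 (0.988), which encodes the taurine transporter, and RBM47 (0.986), an RNA-binding protein. RBM47 stood at 4.58 ± 0.317 FPKM with TGFb 12 h, against 13.4 ± 0.308 FPKM in mock, and SLC6A6 at 12.0 ± 0.218 FPKM, against 29.9 ± 0.227 FPKM in mock. SMAD5 was most like GOLIM4 (0.989), DOCK10 (0.969) and ZDHHC17 (0.966), and GOLIM4, a Golgi membrane protein, stood at 36.3 ± 4.49 FPKM with TGFb 12 h, against 27.4 ± 1.31 FPKM in mock. SMAD1 was most like PRKRIP1 (0.927), CEP20 (0.913) and USP12 (0.911), and SMAD9 most like MAPRE3 (0.945), GAS6 (0.944) and H1-10 (0.941). The likeness was weakest for SMAD2, with ANKRD40 (0.833), SSBP4 (0.821) and TMEM177 (0.774), and for SMAD4, with ZMYM1 (0.826), MAN2C1 (0.823) and FAM193B (0.822).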

How the data were processed

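The labels describe polyadenylated RNA of HK-2 cells, sequenced on an Illumina platform. Per the submitters' processing notes, HISAT2, StringTie and the GRCh38 build were used; the sources used here give no versions, annotation release or strandedness. The authors deposited FPKM, 1 column per library, for 24880 loci, 19974 of them with an Ensembl identifier, of which 19883 were matched to a symbol. Read depth is not recorded: in 15 replicate pairs low values showed no common read unit, so no counting interval is given. Values were analysed as log2(FPKM + 1). The 12467 genes, out of all 24880 loci, with at least 1 FPKM in at least 3 libraries were fitted in limma 3.58.1 (R 4.3.3). The model used group means and eBayes with trend, two-sided. Benjamini-Hochberg adjustment was over all of them in each of 9 comparisons, with calls at an adjusted p under 0.05. The fit was tested on simulated data in which a gene had the same spread in every library. The wider spread of TGFb 1 h replicate 1 was not simulated. Members and lists were chosen with earlier results of these data known. All 6 members are named, and from each list up to 3 called genes of largest change, besides SMAD6, SMAD7, TGFBR1, TGFBR2 and ID1; 1 further gene is not reported here. Each fit was repeated under 24 alternatives: another pseudocount, filters, scalings, a replicate block, no trend, library weights, separate fits and each library left out.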

Additional observations from a re-analysis of the deposited data

How the results depend on the processing

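Of 1278 member changes under 24 alternatives 1197 kept their direction and side of the threshold, 24 lost a call, 4 gained one and 53 uncalled values changed sign; no called value changed sign. The count of members called for TGFb 1 h against mock became 1 (SMAD4) with library weights, and the cause was not tested. Ratios of FPKM + 1, whose added 1 pulls low values together, were 0.127 (TGFb + FT895 1 h), 0.123 (TGFb 1 h), 0.23 (TGFb + FT895 12 h) and 0.209 (TGFb 12 h), against 0.113 in mock, for SMAD2 over SMAD3; 0.534 for SMAD1 over SMAD5 and 0.249 for SMAD4 over the receptor SMADs in TGFb + FT895 12 h; and 2.08 (TGFb + FT895 1 h), 1.06 (TGFb + FT895 12 h) and 1.18 (TGFb 12 h), against 2.29 in mock, for SMAD2 plus SMAD3 over the BMP branch. Replicate numbers did not pair the libraries: 2 of 30 same-numbered pairs correlated above 0.1, and 3 of 15 libraries correlated best with their own number. The replicate block ended the SMAD1 call for TGFb + FT895 12 h against mock (-0.25, adjusted p = 0.0546), changed no other member's call, and called 867 genes for TGFb 1 h and 4756 for TGFb 12 h against mock. Of all genes, 1119 were called for TGFb 1 h against mock, 409 to 1520 with 1 library left out, 373 in a fit of those groups alone and 3985 with library weights. FT895 at 1 h gave 9 calls, 4 to 19 with 1 library left out, 1 in separate fits, 16 with median-of-ratios scaling and 1974 with library weights; at 12 h it gave 2, 1 to 44 with 1 left out, 5 to 25 under other scalings, filters or pseudocount, 1 in separate fits and 1 with the block, and 59 with library weights. The difference between the FT895 effects gave 21, 8 to 28 with 1 left out, 11 in separate fits and 59 with library weights; TGFb + FT895 1 h against mock gave 476, 326 to 827 with 1 left out, 725 in separate fits and 1135 with library weights; and TGFb 12 h against 1 h gave 5113, and 3188 in separate fits. For TGFb 12 h against mock 1765 genes rose and 3049 fell, and 2293 and 2043 with median-of-ratios scaling. A filter at 5 FPKM leaves SMAD2 and SMAD9 untested.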
